A study of Mus musculus with 9 samples.

Results

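The 5 genes described here were chosen for their roles in blood vessels: the growth factor gene Vegfa, the angiopoietin gene Angpt1, the chemokine gene Cx3cl1, the thromboxane receptor gene Tbxa2r and the von Willebrand factor gene Vwf. They were found by gene name in the authors' deposited table of MGH-CP1 against vehicle, where all 5 of 5 names matched 1 row each of its 471 genes (211 of them protein-coding). EHE17 cells are a mouse tumour line labelled endothelial, with the genotype TC+/+ Cdkn2a -/- in every group, where the labels do not spell out TC. EHE17 names a line from mice that model epithelioid hemangioendothelioma, a rare tumour of vessels in which TAZ is fused to CAMTA1. The groups used are cells given MGH-CP1 at 10 µM for 16 h and cells given the DMSO vehicle, with 3 biological replicates each, all of 1 cell line. A dinaciclib group (300 nM, 16 h) belongs to the same study, but 0 of the 5 genes are in its table, and their levels with dinaciclib were not analysed here. That table, whose name carries the word cancer, lists 251 genes. All have an adjusted p below 0.05 and a log2 change of at least 1 in size. How genes were chosen for that name is not given, so a gene can be missing for that reason too. A gene missing from it is not shown to be unchanged.

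These genes act at the interface of endothelium, blood and surrounding cells. VEGF-A drives endothelial growth and permeability through the receptor KDR, while angiopoietin-1, made mostly by cells around the vessel, binds the endothelial receptor TIE2 and steadies the vessel wall. Fractalkine, the product of Cx3cl1, is a membrane-anchored chemokine that captures leukocytes bearing CX3CR1. The thromboxane A2 receptor answers a platelet-derived lipid that narrows vessels, and von Willebrand factor, stored in the Weibel-Palade bodies of endothelial cells, tethers platelets to injured walls. MGH-CP1 inhibits TEAD palmitoylation, and TEAD proteins bind DNA for YAP and TAZ. The comparison asks which transcripts differ after that treatment.

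With MGH-CP1, Vegfa was higher and the other 4 genes were lower, and for each of the 5 the 3 treated libraries lay apart from the 3 vehicle libraries. The groups lay apart in the same way for 98.6% of all tested genes of the table. The change ranged from 2.32-fold higher for Vegfa to 4.90-fold lower for Tbxa2r. Vegfa, Cx3cl1 and Vwf passed edgeR's quasi-likelihood test, but so did 100% of the table's 355 genes with enough counts to test. This is because the authors listed only genes with an adjusted p below 0.05 and a log2 change of at least 1 in size on these same libraries. Of the tested genes 49.3% were called higher and 50.7% lower. The calls are therefore a description of these libraries and no independent support. Angpt1 and Tbxa2r met the minimum count through the vehicle libraries alone, where they were high. Their p-values are therefore not used, and their fitted changes and intervals are a description only. Of the 3 treated libraries, none reached 10 counts for Angpt1, and 2 did for Tbxa2r.

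The MGH-CP1 libraries held 19934012 to 24310817 counts and the vehicle libraries 31852117 to 40020833 counts. Levels are given as normalised counts, that is, read counts divided by the authors' size factor for the library. Where genes are compared with each other, levels are given as FPKM, that is, read counts divided by gene length and library total. The cells express some endothelial genes. Of the 24 endothelial markers looked for, 4 are in the dinaciclib table. It lists only changed genes and is named for cancer, so the level of a marker missing there is not known. The vehicle levels of these 4 averaged 90.3 FPKM for the VEGF receptor gene Kdr, 32.0 FPKM for the transcription factor gene Fli1, 19.4 FPKM for Notch1 and 9.11 FPKM for Gata2. Vwf is itself such a marker, yet it stood at only 0.149 ± 0.0200 FPKM in vehicle cells (SD, n = 3). The MGH-CP1 table held 0 of the markers of platelets, lymphatic endothelium, epithelium, fibroblasts and mural cells. As it lists only changed genes, a marker missing from it is not shown to be absent from the cells. Of the 24 endothelial markers it held 1, Vwf. It held 2 of 15 myeloid markers: Cd68 at 54.8 ± 17.6 normalised counts with MGH-CP1 against 12.2 ± 5.08 in vehicle, and Lyz2 at 92.8 ± 25.7 with MGH-CP1 against 187 ± 16.9 in vehicle (SD, n = 3 each). The pair summed to 4.89 to 5.47 CPM with MGH-CP1 and 6.73 to 7.60 CPM in vehicle. The rRNA gene CT010467.1 took 0.342% to 0.803% of the counts with MGH-CP1 and 0.0402% to 0.125% in vehicle. The part of these shifts in the values below was not tested. In such bulk libraries, fewer cells that make a transcript and less of it per cell cannot be told apart.

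**Figure D1:**
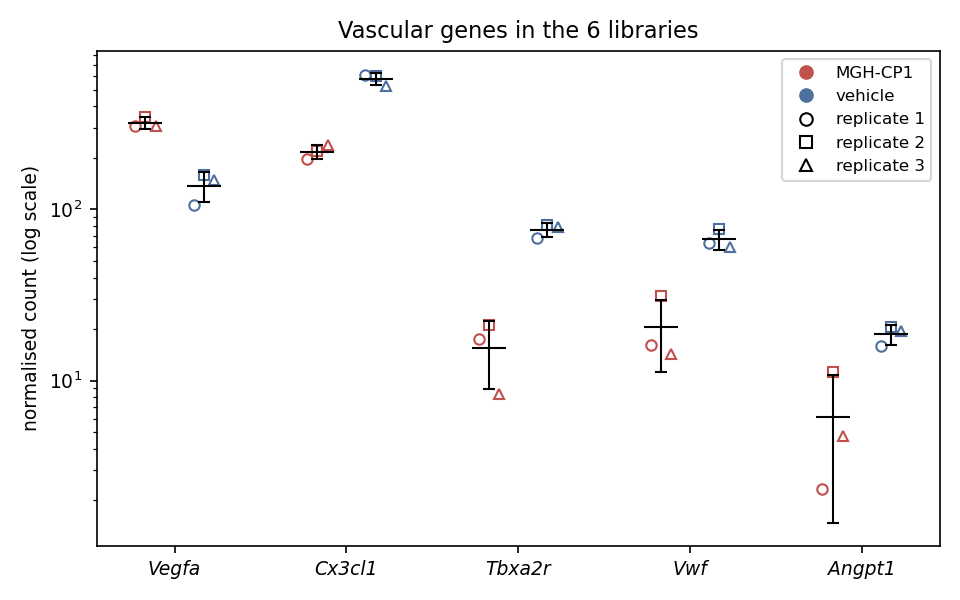
Normalised counts (log scale) of the 5 genes in each of the 6 libraries, MGH-CP1 in red and vehicle in blue, with a symbol per replicate number and black bars for the mean and SD (n = 3). Vegfa lies higher in all 3 MGH-CP1 libraries (306 to 349) than in vehicle (106 to 159), and the other 4 genes lie lower.

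Of the secreted ligands, Vegfa (ENSMUSG00000023951, chromosome 17, 46016993 to 46032369, minus strand, GRCm38) was the single gene of the set that rose. It had 306, 349 and 308 normalised counts in MGH-CP1 replicates 1 to 3, against 106, 159 and 148 in vehicle replicates 1 to 3. The treated libraries were close to each other, and vehicle replicate 1 was the lowest of its group. The means were 321 ± 24.3 with MGH-CP1 and 138 ± 28.2 in vehicle (SD, n = 3 each). The log2 change was 1.22 with SE 0.174 (95% interval 0.83 to 1.60), a 2.32-fold higher level (edgeR, Benjamini-Hochberg adjusted p = 1.31e-04). Among the 102 protein-coding genes that the table lists as higher, 70 had a larger deposited change, so Vegfa stands in the lower part of that list by size.

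The Vegfa promoter is shown because this gene alone moved upward, with the bases just before its upstream start site from RefSeq (GRCm38.p6, chr17:46032378-46032627, minus strand); capitals mark the 2 motif matches found there.
Vegfa: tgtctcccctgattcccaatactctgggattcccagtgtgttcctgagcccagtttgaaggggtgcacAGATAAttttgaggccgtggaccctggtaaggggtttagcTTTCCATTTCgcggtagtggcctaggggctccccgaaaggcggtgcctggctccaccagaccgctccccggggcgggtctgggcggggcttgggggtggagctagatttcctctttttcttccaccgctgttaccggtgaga
The first match, AGATAA, is a GATA core at positions -182 to -177 from the RefSeq start, a motif held by 11.2% of the 32851 promoter windows of 300 bases in the same table. The second, at -142 to -133, is, on the other strand, GAAA, any 2 bases and GAAA, the core of the interferon-stimulated response element, which 3.44% of windows hold. A further Vegfa window has its start site 7206 bases inside the gene. It holds the hypoxia response core ACGTG, on the other strand, at -211 to -207. On either strand, 19.6% of windows hold that core.

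Angpt1 (ENSMUSG00000022309, chromosome 15, 42424723 to 42676977, minus strand) had the fewest counts of the set and the widest error. Its raw counts were 2, 8 and 4 in MGH-CP1 replicates 1 to 3, against 18, 25 and 28 in vehicle replicates 1 to 3. These correspond to 2.32, 11.3 and 4.75 normalised counts with MGH-CP1 and 15.9, 20.5 and 19.5 in vehicle. The groups did not overlap, with MGH-CP1 replicate 2 nearest to vehicle. No treated library reached 10 counts, against all 3 vehicle libraries. The fitted log2 change, given as a description, was -1.65 with SE 0.479 (95% interval -2.71 to -0.59), or 3.14-fold lower. Without MGH-CP1 replicate 2 it was -2.37, which is 1.65 times the fold. In the authors' deposited table its adjusted p is 0.0476, just inside their threshold of 0.05. The first 737 bases of the gene overlap the antisense gene Gm17473, and without a strand mark in the libraries reads of the overlap cannot be told apart.

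Cx3cl1 (ENSMUSG00000031778, chromosome 8, 94772009 to 94782427, plus strand) was the most abundant of the 5 in vehicle cells and had the smallest error. It had 196, 219 and 237 normalised counts in MGH-CP1 replicates 1 to 3, against 610, 600 and 525 in vehicle replicates 1 to 3. The highest treated library was below the lowest vehicle library. The means were 217 ± 20.4 with MGH-CP1 and 578 ± 46.7 in vehicle (SD, n = 3 each), on 523 raw counts with MGH-CP1 and 2175 in vehicle. The log2 change was -1.41 with SE 0.143 (95% interval -1.73 to -1.10), or 2.66-fold lower (edgeR, Benjamini-Hochberg adjusted p = 1.65e-05).

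For Cx3cl1 and Tbxa2r, which fell, the bases before the first annotated start are shown so that they can be set against Vegfa; for Cx3cl1 only the stretch outside the annotated gene is given (RefSeq, GRCm38.p6, chr8:94771930-94772008 on the plus strand for Cx3cl1 and chr10:81328018-81328267 on the plus strand for Tbxa2r), and no motif fell in either stretch, so neither has capitals.
Cx3cl1: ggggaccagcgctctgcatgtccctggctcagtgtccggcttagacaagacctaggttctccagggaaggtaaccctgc
Tbxa2r: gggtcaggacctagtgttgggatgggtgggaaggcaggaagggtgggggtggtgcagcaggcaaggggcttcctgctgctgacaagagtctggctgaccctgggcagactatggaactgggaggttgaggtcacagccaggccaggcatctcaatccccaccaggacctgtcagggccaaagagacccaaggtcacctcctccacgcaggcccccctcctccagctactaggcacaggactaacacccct
The Cx3cl1 window goes on into the gene, where TATAAA stands at -6 to -1 from the RefSeq start, and its first base lies 30 bases before another annotated transcript start of Cx3cl1 at 94772204. That motif is in 13.6% of windows. On either strand, the TEAD core GGAATG (in 14.7% of windows) was found in 0 of the 5 windows that 3 of the 5 genes have. The same holds for TGANTCA of AP-1 (7.81%), GGG, any 2 bases and TTTCC of NF-kB (1.63%), TGATGNAA of the CHOP and ATF composite element (3.97%) and the ETS core CCGGAA (14.9%). The table holds no window for Vwf and Angpt1.

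The receptor gene Tbxa2r (ENSMUSG00000034881, chromosome 10, 81328731 to 81335172, plus strand) had the largest change of the 5. It had 17.4, 21.2 and 8.32 normalised counts in MGH-CP1 replicates 1 to 3, against 67.9, 81.3 and 78.9 in vehicle replicates 1 to 3. MGH-CP1 replicate 3 was the lowest library, with 7 raw counts, and every vehicle library was above every treated one. The means were 15.6 ± 6.61 with MGH-CP1 and 76.0 ± 7.12 in vehicle (SD, n = 3 each). The fitted log2 change, given as a description, was -2.29 with SE 0.314 (95% interval -2.99 to -1.60), or 4.90-fold lower. By size of the deposited change it ranked 13 among the 109 protein-coding genes listed as lower.

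Vwf (ENSMUSG00000001930, chromosome 6, 125546774 to 125686679, plus strand) is the adhesive protein gene of the set. It had 16.2, 31.1 and 14.3 normalised counts in MGH-CP1 replicates 1 to 3, against 63.5, 77.2 and 60.0 in vehicle replicates 1 to 3. The second replicate was the highest of each group, and the groups did not overlap. The means were 20.5 ± 9.20 with MGH-CP1 and 66.9 ± 9.07 in vehicle (SD, n = 3 each), from 48 raw counts with MGH-CP1 and 252 in vehicle. The log2 change was -1.72 with SE 0.314 (95% interval -2.42 to -1.03), or 3.30-fold lower (edgeR, Benjamini-Hochberg adjusted p = 5.47e-04).

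**Figure D2:**
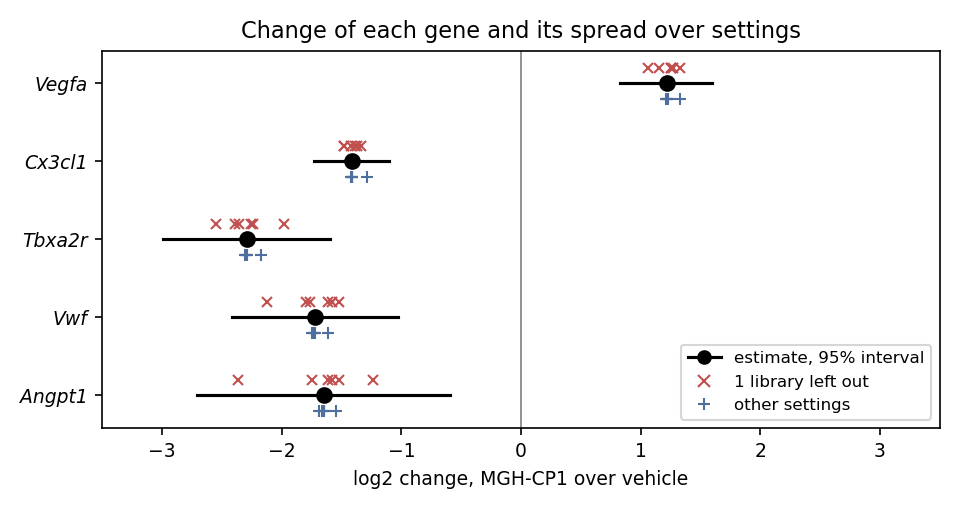
Log2 change (MGH-CP1 over vehicle) of each gene, with the estimate and its 95% interval in black, the 6 values with 1 library left out as red crosses and the values under the other settings as blue plus signs. No value crosses 0; Angpt1 has the widest interval, from -2.71 to -0.59.

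Set beside each other per gene length, the 5 transcripts changed order. With MGH-CP1 the order was Vegfa (2.66 FPKM), Cx3cl1 (1.96 FPKM), Tbxa2r (0.289 FPKM), Vwf (0.0454 FPKM) and Angpt1 (0.0418 FPKM), and only Vwf and Angpt1 overlapped among neighbours. In vehicle cells the order was Cx3cl1 (5.25 FPKM), Tbxa2r (1.41 FPKM), Vegfa (1.15 FPKM), Vwf (0.149 FPKM) and Angpt1 (0.128 FPKM), where Tbxa2r overlapped Vegfa and Vwf overlapped Angpt1. Vwf is far the longest of the set, with a deposited length of 16064 bases against 1919 for Tbxa2r, so that similar counts of these genes stand for unlike FPKM values.

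**Figure D3:**
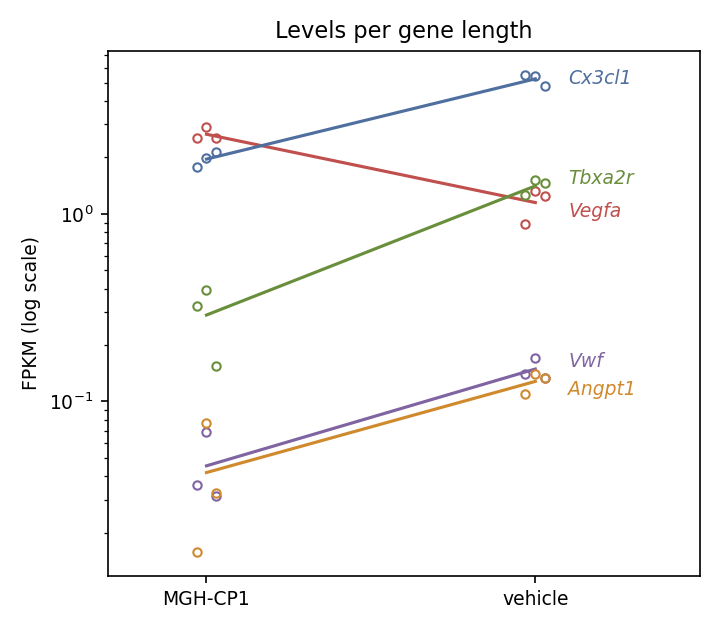
FPKM (log scale) of the 5 genes with MGH-CP1 and in vehicle; open circles are libraries and lines join the group means. The lines of Vegfa and Cx3cl1 cross: with MGH-CP1 Vegfa is at 2.66 and Cx3cl1 at 1.96 FPKM, and in vehicle Vegfa is at 1.15 and Cx3cl1 at 5.25 FPKM.

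The ratio of one transcript to another within a library does not depend on how libraries were scaled. The ratio of Vegfa to Cx3cl1 in FPKM was 1.43, 1.46 and 1.19 in MGH-CP1 replicates 1 to 3, against 0.159, 0.243 and 0.259 in vehicle replicates 1 to 3. Vegfa was thus above Cx3cl1 in every treated library and below it in every vehicle library. On the log2(FPKM + 0.1) scale the mean ratio was 0.42 with MGH-CP1 and -2.12 in vehicle, a difference of 2.54, with an exact permutation p of 0.1 (two-sided, n = 3 each), the smallest that 3 against 3 libraries can give. With 1 FPKM added in place of 0.1 the difference was 1.85, from 0.31 with MGH-CP1 and -1.55 in vehicle. The authors picked both genes for opposite changes on these same libraries, so the difference is a description and no independent support. The exact permutation p was 0.1 as well for Vegfa, Cx3cl1 and Vwf each.

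All 10 pairs of the 5 genes were compared in the same way on raw counts, with 0.5 added to each. The 4 pairs with Vegfa differed between the groups by 2.65 to 3.56 on the log2 scale, and their libraries did not overlap. Vegfa is listed as higher and the other 4 as lower on these same libraries. These 4 differences thus follow from the authors' choice of genes and are a description only. Among the 6 pairs of genes that were lower, the log2 ratio of Tbxa2r to Cx3cl1 was -3.84 with MGH-CP1 and -2.92 in vehicle, without overlap, and the other 5 pairs overlapped. The ratio of Vwf to Angpt1 was 1.80 ± 0.634 with MGH-CP1 and 1.82 ± 0.194 in vehicle on the log2 scale (SD, n = 3 each). None passed adjustment over the 10 pairs, with exact permutation p-values of 0.1 to 1.00 and adjusted values of 0.200 to 1.00 (two-sided), as the design cannot go below 0.1 before adjustment. These data do not show that the 4 lower genes fell by unlike amounts, nor that they fell alike. Pairs with Angpt1 or Tbxa2r are a description only, since both genes met the minimum count through the vehicle libraries alone.

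**Figure D4:**
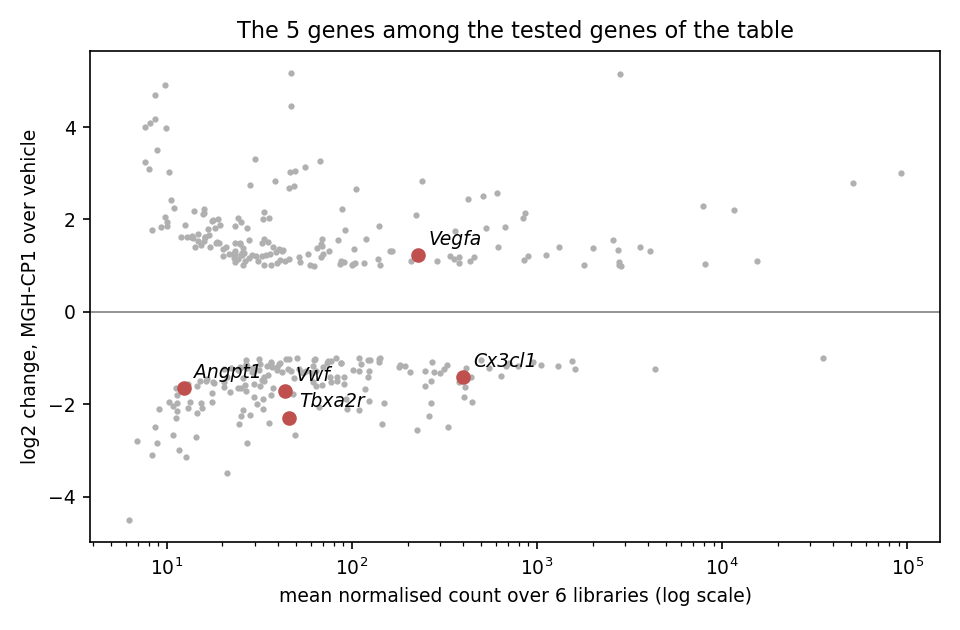
Log2 change (MGH-CP1 over vehicle) against mean normalised count over the 6 libraries (log scale) for the 355 tested genes of the table in grey, with the 5 genes in red. The empty band around 0 is the authors' limit of 1 on the log2 change; Cx3cl1 and Vegfa lie among the genes with more counts and Angpt1 among those with few.

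The table itself is the only yardstick for the size of these changes. The log2 change was 1.22 for Vegfa, -1.41 for Cx3cl1 and -1.72 for Vwf. Beside these, the median size was 1.45 over the 355 tested genes and 1.32 over the 187 protein-coding ones. The replicate ranges of the groups were separate for 5 of 5, and for 98.6% of all tested genes. As a measure of how much counting stands behind each gene, and not of its level, 49 of the 471 genes had a higher mean normalised count than Cx3cl1, 69 than Vegfa, 166 than Tbxa2r, 169 than Vwf and 321 than Angpt1.

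Within a group, the spread differed between genes and libraries. MGH-CP1 replicate 2 was the highest treated library for Vegfa, Vwf, Angpt1 and Tbxa2r, by 0.12, 0.60, 0.88 and 0.44 on the log2 scale over the group mean, but not for Cx3cl1 (0.01). It was also the treated library with the fewest total counts (19934012) and the largest share of the rRNA gene CT010467.1 (0.803%); their part in these values was not tested. The variance between treated libraries was 2.26 to 3.19 times what counting alone gives for Tbxa2r, Angpt1 and Vwf, and 1.39 and 1.64 times for Vegfa and Cx3cl1. Between vehicle libraries it was 6.70 times for Vegfa and 5.04 times for Cx3cl1, the genes with the most counts, against 0.376 to 1.57 times for the other 3.

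**Figure D5:**
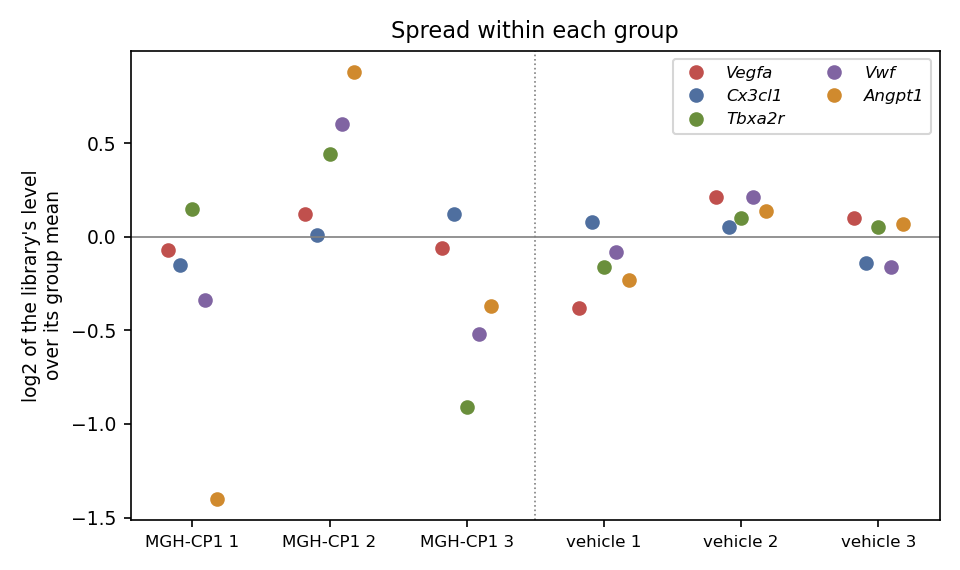
Log2 of each library's normalised count over its group mean, for the 5 genes, with MGH-CP1 libraries left and vehicle libraries right of the dotted line. The widest values are those of Angpt1 with MGH-CP1, from -1.40 in replicate 1 to 0.88 in replicate 2, and the vehicle libraries stay within -0.38 and 0.21.

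The partners of these 5 factors were looked for in 8 lists holding 156 genes in all, of which 13 were in the MGH-CP1 table, 8 of them beyond the set. A gene that is not in the table is not shown to be unchanged. Of 10 VEGF ligands and receptors and of 10 angiopoietin and TIE genes, Vegfa and Angpt1 were the only ones listed, Vegfa as higher and Angpt1 as lower; the receptor genes Flt1, Kdr and Tek were not. Of 28 genes of Weibel-Palade bodies and haemostasis 1 was listed (Vwf, lower), and of 16 genes of prostanoid synthesis and reception 1 (Tbxa2r, lower), so no cyclooxygenase or prostacyclin gene appears beside it.

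Of 28 chemokine, chemokine receptor and adhesion genes 2 were listed, and 1 was called lower, Cx3cl1. The other, the interferon-induced chemokine gene Cxcl10, had 0, 0 and 1 raw counts in MGH-CP1 replicates 1 to 3, against 8, 7 and 17 in vehicle replicates 1 to 3, too few to test. Of 21 vasoactive genes 1 was listed, the calcium-activated potassium channel gene Kcnn3, which acts in endothelial relaxation of vessels and was lower, with 62 raw counts with MGH-CP1 and 411 in vehicle and a log2 change of -2.07.

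Vegfa is also a known target of hypoxia signalling and of the stress factor ATF4. Of 24 hypoxia-responsive genes 2 were listed, and they went opposite ways: Vegfa was higher, and Ddit4, an inhibitor of mTORC1, was lower at 417 ± 75.6 normalised counts with MGH-CP1 against 947 ± 14.1 in vehicle (SD, n = 3 each). Of all 471 genes of the table, 270 were listed as higher. Of 23 ATF4-responsive genes looked for, 6 were listed, each as higher. Vegfa is itself one of them, and Ddit4, which ATF4 also induces, is not in that list of 23 but was lower, so the count does not show that ATF4 targets moved one way. Beside Vegfa the 6 were the stress cytokine gene Gdf15 (log2 change 2.23), the cystine transporter gene Slc7a11 (1.40), the folate enzyme gene Aldh1l2 (1.32), and, also higher, the folate enzyme gene Mthfd2 and Cth, which makes cysteine.

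The profile of Vegfa over the 6 libraries was nearest to those of the kinesin gene Kif21a, Aldh1l2 and the kinase gene Map3k9, at distances of 0.219, 0.271 and 0.285. Likeness is the Euclidean distance between log2(normalised count + 1) profiles, each centred on its own mean, among 123 or 124 protein-coding genes of the upper part of the table by mean. Kif21a averaged 284 ± 32.4 normalised counts with MGH-CP1 and 133 ± 33.0 in vehicle (SD, n = 3 each). For Cx3cl1 the nearest were the synaptic gene Arc and the mitochondrial assembly gene Pet100, at 0.320 and 0.341. Arc averaged 122 ± 10.7 normalised counts with MGH-CP1 and 374 ± 14.3 in vehicle (SD, n = 3 each).

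Vwf was nearest to the costimulatory receptor gene Cd40, at a distance of 0.288, and then to Ccdc80 and Foxj1 at 0.683 and 0.724. Cd40 averaged 32.2 ± 16.4 normalised counts with MGH-CP1 and 91.5 ± 8.08 in vehicle (SD, n = 3 each). Vwf in turn was the nearest gene to Tbxa2r, at 0.951, and the third nearest to Angpt1, at 0.850, after Foxj1 and Tm4sf19. The nearest profiles of Tbxa2r and Angpt1, at 0.951 and 0.757, were thus farther away than those of the other 3 genes, at 0.219 to 0.320. Tbxa2r and Angpt1 also had the fewest raw counts with MGH-CP1, 37 and 14. The part of counting noise in these distances was not tested.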

How the data were processed

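RNA sequencing was done on poly(A)-selected, unstranded libraries of EHE17 cells, per the labels' protocols. The submitters' processing notes list DESeq2 1.20.0, featureCounts 1.5.0-p3, HISAT2 2.0.5 and fastp. The genome build is not given in the sources used here and was taken as GRCm38, since 464 of 471 genes (98.5%) have the same start and end in GENCODE M21. Per the file headers, the deposited table holds raw counts, FPKM, gene lengths, and the authors' own p-values, raw and adjusted, with their log2 fold change. The deposited normalised signal equals counts over a single size factor for each library, which 100% of values gave back within 0.01 counts. Library totals were computed from count, FPKM and length.

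All 471 genes and 6 libraries went into edgeR 4.0.16 (R 4.3.3, quasi-likelihood test, two-sided, no covariate), scaled by the authors' size factors because the table holds only changed genes, with filterByExpr at a minimum count of 10 and Benjamini-Hochberg adjustment over the 355 tested genes, threshold 0.05. SE is the log2 change over the square root of F. The fit was also run on simulated counts with a fixed spread and with unchanged genes among them, unlike this table. That run is no support for the calls here. Over the listed genes, the rRNA gene CT010467.1 among them, squared differences between replicates averaged 14.7 to 234 times the counting variance, so none was counted once. For the 5 genes the variance within a group was 0.376 to 6.70 times what counting gives. Exact permutation tests used scipy 1.17.1. The labels call the replicates biological. The members, lists and tests were chosen with earlier results of these data known. Named genes were the 5 members, listed genes of the 8 lists (values for up to 4 more each), 3 nearest profiles per member (1 is not reported here), and markers; the 10 pairs were added later. Alternatives were TMM, total counts, DESeq2 1.42.0, no filter, a replicate block, protein-coding genes alone, a threshold of 0.01, other FPKM pseudocounts and leaving out each library. Promoter windows are RefSeq's. Figures used matplotlib 3.10.9.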

Additional observations from a re-analysis of the deposited data

How the results depend on the processing

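Under the alternatives run, the 5 genes kept their direction. Their passing the threshold in those fits says nothing about stability, since the authors picked the table for change on these libraries and nearly all tested genes pass: with 1 library left out, from 385 of 393 to 370 of 370. With 1 library left out, the log2 change spanned 1.06 to 1.33 for Vegfa, -2.12 to -1.52 for Vwf, -2.37 to -1.24 for Angpt1, -2.55 to -1.98 for Tbxa2r and -1.48 to -1.34 for Cx3cl1, and the difference between groups in the Vegfa to Cx3cl1 log2 ratio 2.34 to 2.66. With TMM factors, where the median log2 change of all tested genes was -0.87 in place of -1.01, Vegfa stood at 1.33 and Cx3cl1 at -1.29. Protein-coding genes alone gave 187 calls, because fewer genes were fitted. A pseudocount of 1 FPKM gave a difference of 1.85 in the Vegfa to Cx3cl1 log2 ratio in place of 2.54, since it shrinks low levels. Same-numbered replicates did not deviate together (correlations across 341 genes of 0.01, -0.12 and 0.04), so the replicate block is a check only: it called 355 of 355 genes, with Angpt1 at -1.69. Depth limits Angpt1 most, with 14 counts over 3 treated libraries. Angpt1 and Tbxa2r were tested through the vehicle libraries alone.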
